A study of Mus musculus with 9 samples.

Results

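The genes described here are 10 genes of blood vessels and of the basement membrane around them: Flt1, Kdr, Tek, Adgrl4, Pecam1, Cldn5, Slco1a4, Pdgfrb, Col4a1 and Col4a2. They were picked by symbol from the 14444 genes of the deposited matrix, and all 10 were measured. Earlier results on these same libraries were known when they were picked, so their levels, their co-variation and their differences between groups are given as a description, without p-values. Pdgfrb is a marker of pericytes rather than of endothelial cells, and the name of the set does not cover it.

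Total RNA of mouse brain prefrontal cortex, depleted of ribosomal RNA, was sequenced from stranded libraries in 3 groups of 3 libraries, from mice of postnatal weeks 5 to 8. The 3 groups were wild-type mice that received saline, Shank3 mutants that received saline and Shank3 mutants that received UNC0642, injected intraperitoneally (1 mg/kg) daily over 3 days. Shank3 encodes a scaffold protein of excitatory synapses, and the labels do not name the mutant allele. UNC0642 blocks EHMT1 and EHMT2, histone methyltransferases, and was given to the whole animal rather than to one cell type. Whether the libraries within a group stem from different animals is not stated, so each SD measures how the libraries of a group differ, and that may be technical variation. Of 12 genes that mark cortical neurons and 47 that mark endothelial cells, all were measured and none was at 0 reads in every library.

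Endothelial cells line the capillaries of the brain and form the blood-brain barrier through tight junctions and selective transporters. Vascular endothelial growth factor A, made largely by astrocytes and neurons, signals through the receptor Kdr, while Flt1 binds the same ligand with high affinity and signals weakly, so that it can act as a decoy. Pericytes cover the capillary from outside and depend on platelet-derived growth factor, which their receptor Pdgfrb reads. Both cell types are embedded in a basement membrane whose network is built from trimers of the type IV collagen chains encoded by Col4a1 and Col4a2.

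Col4a1 and Col4a2 stand head to head in the genome, and their promoter sequences are shown because the chains form one trimer while their levels did not keep one ratio in all libraries. RefSeq (GRCm38.p6) gives windows of 300 bases, from 250 before to 50 after the start, for 8 of the 10 genes. The Col4a1 window lies at chr8:11312777-11313076 on the minus strand and the Col4a2 window at chr8:11312555-11312854 on the plus strand. The starts are 21 bases apart on opposite strands, and the capitals mark the 78 bases that both windows hold, each read 5′ to 3′ on its own strand.
Col4a1: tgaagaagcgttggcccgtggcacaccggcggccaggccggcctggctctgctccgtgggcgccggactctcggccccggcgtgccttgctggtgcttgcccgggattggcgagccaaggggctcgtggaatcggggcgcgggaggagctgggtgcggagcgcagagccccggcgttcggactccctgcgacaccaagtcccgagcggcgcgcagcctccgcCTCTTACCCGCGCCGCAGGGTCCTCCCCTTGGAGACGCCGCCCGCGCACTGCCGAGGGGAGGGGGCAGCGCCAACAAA
Col4a2: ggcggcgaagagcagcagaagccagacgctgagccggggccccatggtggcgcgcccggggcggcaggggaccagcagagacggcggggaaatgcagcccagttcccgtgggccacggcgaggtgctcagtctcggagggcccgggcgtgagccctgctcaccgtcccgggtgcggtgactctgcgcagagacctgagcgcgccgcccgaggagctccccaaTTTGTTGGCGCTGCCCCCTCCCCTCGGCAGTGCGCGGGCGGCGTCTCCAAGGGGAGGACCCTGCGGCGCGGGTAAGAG

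The promoters of Flt1 and Adgrl4, the pair of genes whose levels ran most closely together, are shown with that of Cldn5. Over the 9 libraries the deposited values of Cldn5, an endothelial gene, had Pearson's r of -0.003 and -0.03 with them. The Flt1 window is chr5:147725962-147726261 (minus strand), the Adgrl4 window chr3:151437632-151437931 (plus strand) and the Cldn5 window chr16:18776597-18776896 (plus strand). Capitals mark GGAA on either strand, the core that ETS factors bind, a family with well-known roles in endothelial gene expression.
Flt1: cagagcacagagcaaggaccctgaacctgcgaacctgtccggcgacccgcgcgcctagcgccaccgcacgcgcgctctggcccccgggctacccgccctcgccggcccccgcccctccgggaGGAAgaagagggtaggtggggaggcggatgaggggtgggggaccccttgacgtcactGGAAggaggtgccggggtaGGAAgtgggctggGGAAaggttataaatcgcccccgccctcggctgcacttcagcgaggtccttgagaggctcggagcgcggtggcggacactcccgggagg
Adgrl4: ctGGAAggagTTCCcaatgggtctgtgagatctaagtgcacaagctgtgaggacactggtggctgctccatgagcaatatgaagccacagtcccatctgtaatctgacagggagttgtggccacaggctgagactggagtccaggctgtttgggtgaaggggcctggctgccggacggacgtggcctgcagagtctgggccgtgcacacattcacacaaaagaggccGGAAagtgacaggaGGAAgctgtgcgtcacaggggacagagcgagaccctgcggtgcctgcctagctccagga
Cldn5: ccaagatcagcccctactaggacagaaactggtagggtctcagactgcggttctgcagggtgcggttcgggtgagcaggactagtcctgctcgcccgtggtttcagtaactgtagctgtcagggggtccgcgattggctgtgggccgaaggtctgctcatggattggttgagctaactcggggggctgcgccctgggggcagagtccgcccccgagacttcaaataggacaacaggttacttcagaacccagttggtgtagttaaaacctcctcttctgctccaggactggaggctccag
GGAA occurred 4 times each in the Flt1 and Adgrl4 windows and 0 times in that of Cldn5, and at least once in 7 of the 8 windows. The counts did not sort with co-variation. Slco1a4, with r of 0.01 and 0.06 with Flt1 and Adgrl4 in the deposited values, had 5, as did Kdr. Tek and Col4a2 had 2 each and Col4a1 had 1. GGAA was thus common in these windows. It is so short that 96.0% of the 32817 mouse promoter windows of that length hold it. The longer AGGAAG, which contains GGAA, was found in Flt1, Adgrl4 and Slco1a4, against 35.4% of all windows. CCAAT was found in Adgrl4, Slco1a4, Col4a1, Col4a2 and Cldn5 (37.4% of all windows) and GGGCGG in Kdr, Flt1, Col4a1, Col4a2 and Cldn5 (35.6%), while TGACGTCA was in the Flt1 window alone among the 8 (1.79%). Every motif was searched on both strands. These matches describe the letters, and no binding was measured.

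The deposited values, called CPM by the authors, carry an adjustment that touches every difference below. Gene by gene, wild type together with UNC0642 replicates 2 and 3 has the same mean log2 value as the saline mutants together with UNC0642 replicate 1, the largest gap being 2.5e-09. The 3 differences between group means are therefore tied to each other, and most of any contrast of saline mutants with wild type is taken out. The whole reads behind the values were recovered for all 14444 genes, and they came to between 12035098 and 16165483 per library. In these reads the first principal component, with 52.0% of the variance, set the 3 wild-type libraries and UNC0642 replicate 3 (scores of 16.3 to 34.7) apart from the other 5 libraries (-22.4 to -14.8). That division and the genotype cannot be told apart except through UNC0642 replicate 3. UNC0642 replicate 2 was thus adjusted together with the wild type, although its reads lie with the saline mutants. For a gene with more reads in wild type, this lowers its deposited value relative to the saline mutants and UNC0642 replicate 1. Both scales are given below, the deposited value and RPM, the recovered reads scaled to the same total in every library.

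The adjustment moved the 10 genes by different amounts. Between the adjusted sets the log2 gap that it removed was 0.61 for Adgrl4, 0.48 for Flt1, 0.41 for Col4a1, 0.31 for Tek, 0.28 for Col4a2, 0.27 for Slco1a4, 0.24 for Pecam1 and 0.21 for Kdr, each higher in the set that holds the wild type. For Cldn5 it was 0.07 and for Pdgfrb -0.02, so the tight junction gene and the pericyte gene read nearly alike on both scales.

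Per kilobase of exon, the order of the deposited levels in the wild-type libraries was led by Cldn5, the claudin that seals endothelial tight junctions, at 23.4 ± 0.198 (SD, n = 3). Col4a2 followed at 11.3 ± 1.09, Col4a1 at 7.37 ± 0.800 and Slco1a4 at 5.69 ± 1.00. Each of these lay clear of the next in the order in all 3 libraries, but the lowest Slco1a4 value (5.01) was below the highest of Pdgfrb (5.09). The order was not taken in RPM. Adgrl4 (4.25 ± 0.589), Pdgfrb (4.10 ± 0.863), Flt1 (3.89 ± 0.409), Tek (3.46 ± 0.828) and Pecam1 (3.41 ± 0.450) each overlapped with its neighbour in the order and were not separated by their spread. Kdr was lowest at 1.64 ± 0.134, below every Pecam1 value. Without correction for length, the mean deposited values of the 10 genes over the 9 libraries ranged from 13.2 for Kdr to 64.6 for Col4a2, at the 34.5th and 73.9th percentile of all genes.

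**Figure D1:**
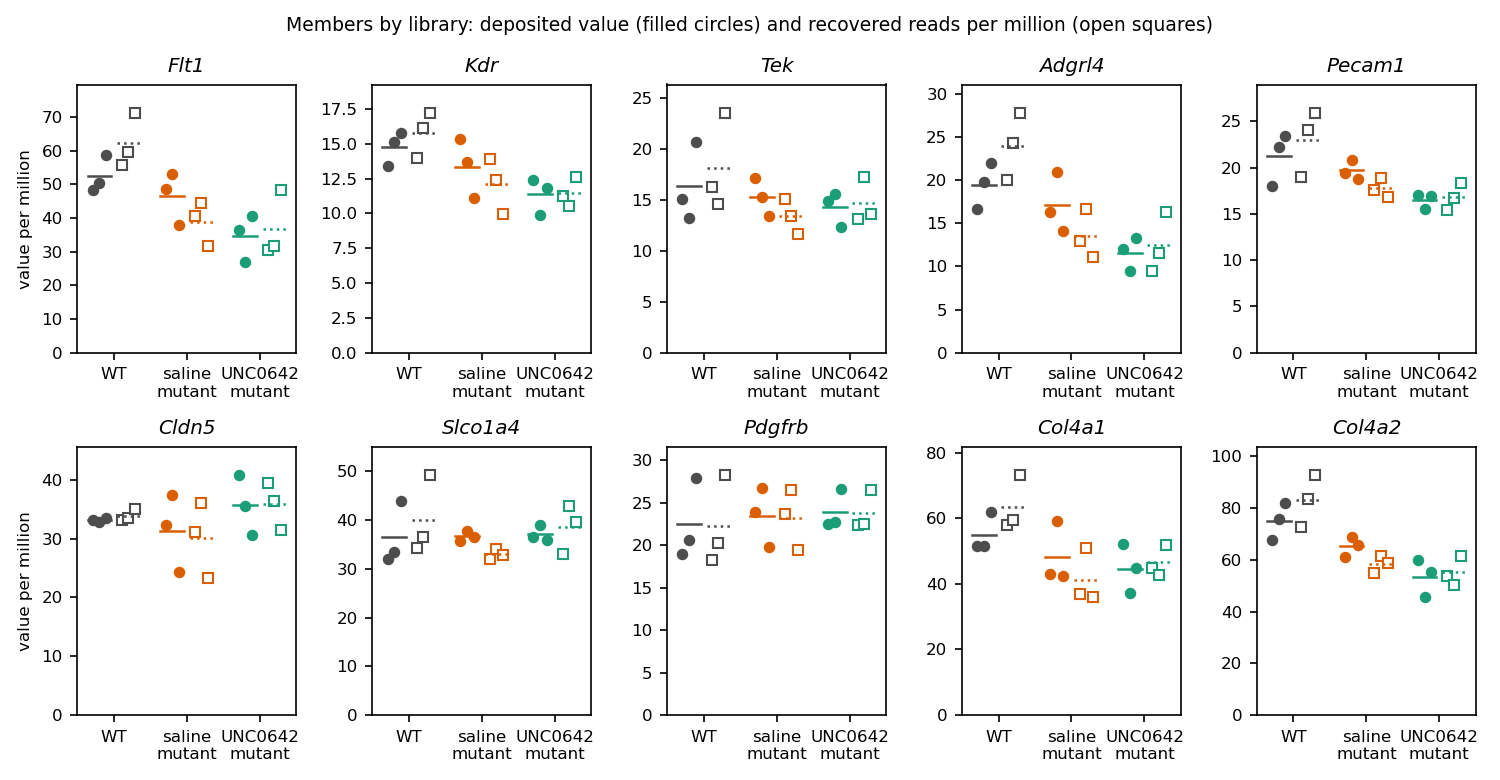
Levels of the 10 genes in each library, in the wild-type, saline mutant and UNC0642 mutant groups (3 libraries each). Filled circles are deposited values and open squares are recovered RPM, with solid and dotted lines at the group means; the vertical axes start at 0 and differ between genes. In 7 of the 10 genes (Flt1, Kdr, Adgrl4, Pecam1, Slco1a4, Col4a1 and Col4a2) every open square of the wild type lies above every one of the saline mutants, against 20.5% of all genes. In Cldn5, Tek and Pdgfrb they overlap, and in the filled circles these groups overlap in all 10. The library division cannot be told apart from this contrast except through UNC0642 replicate 3.

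Flt1, the decoy-like receptor, had the larger differences of the VEGF receptor pair in the deposited values and in the reads without the division as a term. Its deposited values were 48.3, 50.4 and 58.8 in wild type, 48.7, 53.2 and 38.0 in the mutants given saline and 36.3, 26.9 and 40.5 under UNC0642. Every UNC0642 library lay below every wild-type library, whereas the saline mutants overlapped with wild type and, through replicate 3, with UNC0642. The log2 difference was -0.18 from wild type to saline mutant, -0.43 from saline mutant to UNC0642 and -0.61 from wild type to UNC0642 (SE 0.15 each), the last being a level 0.655 times that of wild type. In bulk tissue, fewer endothelial cells and less RNA per endothelial cell cannot be told apart, and these deposited values also carry the adjustment.

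The recovered reads placed the step of Flt1 elsewhere. Wild type had 671, 790 and 885 reads, with 511, 678 and 453 in the mutants given saline and 373, 513 and 730 under UNC0642, which is 62.1 ± 8.00, 38.9 ± 6.65 and 36.8 ± 9.90 RPM (SD, n = 3 each). Both mutant groups lay below wild type in every library and overlapped with each other. On this scale the log2 difference of saline mutant and wild type was -0.68 (SE 0.17) and that of UNC0642 and saline mutant -0.09. With the division as a term, which leaves UNC0642 replicate 3 as the link to wild type, the former was -0.05 (SE 0.22). Among the 5 mutant libraries on one side of the division, UNC0642 replicates 1 and 2 differed from the saline mutants by -0.31 (SE 0.13).

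Kdr, the main signalling receptor for VEGF on endothelial cells, went the same way by less on those scales. It was at 13.4, 15.2 and 15.8 in the deposited values of wild type, at 15.4, 13.7 and 11.1 in the mutants given saline and at 12.4, 9.91 and 11.8 under UNC0642. Again the UNC0642 libraries were all below wild type, and the saline mutants overlapped with both. The difference of UNC0642 and wild type was -0.37 (SE 0.14), and in the reads saline mutant minus wild type was -0.40 (SE 0.15), or -0.18 (SE 0.26) with the division as a term, where Flt1 had -0.05. Set against each other per kilobase, Flt1 stood at 2.63 ± 0.152 times Kdr in the reads of wild type, 2.16 ± 0.226 in mutants given saline and 2.13 ± 0.386 under UNC0642 (SD, n = 3 each). Every saline mutant (at most 2.40) lay below every wild-type library (at least 2.47), while UNC0642 replicate 3, at 2.56, lay within the wild-type range. In the deposited values the 3 groups overlapped, at 2.23 to 2.49, 2.12 to 2.60 and 1.81 to 2.30.

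Tek, the angiopoietin receptor that keeps vessels quiescent, did not separate the groups. Its deposited values were 15.0, 13.2 and 20.7 in wild type, 17.2, 15.3 and 13.4 in the mutants given saline and 14.8, 15.6 and 12.3 under UNC0642. Wild-type replicate 3 was the highest of the 9, and the lowest values of the groups lay close together, at 13.2, 13.4 and 12.3. The 3 differences were -0.07, -0.10 and -0.17 (SE 0.16 each), and leaving out single libraries turned the sign of each. In the reads, saline mutant minus wild type was -0.41 (SE 0.19), or -0.58 (SE 0.32) with the division as a term, and UNC0642 minus saline mutant was 0.15.

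Adgrl4, an adhesion G protein-coupled receptor of endothelial cells, had the largest deposited differences of the 10 under UNC0642, against either other group. It was at 16.6, 19.8 and 22.0 in wild type, at 16.3, 20.9 and 14.1 in the mutants given saline and at 12.01, 9.42 and 13.2 under UNC0642. The UNC0642 libraries lay below all 6 others, the highest of them at 13.2 against a lowest other value of 14.1. Relative to saline mutants the log2 difference was -0.54, and relative to wild type it was -0.73 (SE 0.16 each), a level 0.602 times that of wild type.

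The reads of Adgrl4 were 240, 322 and 345 in wild type, 162, 253 and 159 in the mutants given saline and 116, 186 and 247 under UNC0642. In RPM that was 23.98 ± 3.90, 13.5 ± 2.82 and 12.4 ± 3.51 (SD, n = 3 each), so here the saline mutants lay near the treated ones. UNC0642 replicate 3, on the wild-type side of the division, was at 16.3, above the other UNC0642 libraries (9.48 and 11.5) and below the lowest wild type (19.9). UNC0642 replicate 2 was above replicate 1 in RPM (11.5 against 9.48) and below it in the deposited values (9.42 against 12.01), since it was adjusted with the wild type. Saline mutant minus wild type was -0.83 (SE 0.19), and -0.20 (SE 0.30) with the division as a term. On one side of the division, UNC0642 minus saline mutant was -0.34 (SE 0.19). The smallest count among all 10 genes was the 116 reads of UNC0642 replicate 1, with an exact Poisson interval (95%) of 95.9 to 139. The largest was 1153 for Col4a2 in wild-type replicate 3 (1087 to 1222), and these intervals cover counting error only, as reads without molecular identifiers are not independent molecules.

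Pecam1, an adhesion molecule at endothelial cell contacts, varied little within the mutant groups. Its deposited values were 18.1, 22.3 and 23.4 in wild type, 19.4, 20.8 and 18.8 in the mutants given saline and 17.1, 15.5 and 16.9 under UNC0642. The UNC0642 libraries were again below all 6 others, and the saline mutants lay within the wild-type range. UNC0642 minus saline mutant was -0.25 and UNC0642 minus wild type -0.35 (SE 0.12 each). In RPM the means were 23.0, 17.7 and 16.9 in the 3 groups. Saline mutant minus wild type was -0.36 (SE 0.13) in the reads, or -0.18 (SE 0.23) with the division as a term. UNC0642 minus saline mutant was -0.07, or -0.13 (SE 0.13) on one side of the division.

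Cldn5 and Slco1a4, which serve the barrier itself, did not share this pattern. Cldn5 was at 33.2, 32.9 and 33.4 in wild type, at 32.4, 37.4 and 24.4 in the mutants given saline and at 40.7, 35.6 and 30.6 under UNC0642. The wild-type libraries agreed within 0.281 (SD), while saline mutant replicate 3 was the lowest and UNC0642 replicate 1 the highest of the 9, so the groups overlapped throughout. Saline mutant minus wild type was -0.10 in the deposited values, -0.19 in the reads and -0.45 (SE 0.23) with the division as a term. UNC0642 minus saline mutant was 0.19 (SE 0.14) in the deposited values and 0.34 (SE 0.14) in the reads on one side of the division, the opposite sign to Flt1, Adgrl4 and Pecam1 in the same libraries.

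Slco1a4 encodes an organic anion transporter of the brain endothelium. It was at 32.1, 33.5 and 43.9 in wild type, 35.7, 37.8 and 36.6 in the mutants given saline and 36.6, 39.0 and 35.9 under UNC0642. All 6 mutant libraries lay between the lowest and highest wild type, and the 3 differences were 0.02, 0.02 and 0.04 (SE 0.11 each). In RPM, however, the saline mutants (32.1 to 34.0) lay below every wild-type library (34.3 to 49.2). Saline mutant minus wild type was -0.26 (SE 0.14) in the reads, or -0.20 (SE 0.23) with the division as a term. The gene has close relatives in its family, and how reads shared between them were counted is not given in the sources used here.

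Pdgfrb, through which pericytes are recruited and kept on the vessel, was at 19.0, 20.6 and 27.9 in wild type. It was at 23.9, 26.7 and 19.8 in the mutants given saline and at 22.5, 22.7 and 26.6 under UNC0642. The groups overlapped in full, and the differences were 0.07, 0.03 and 0.10 (SE 0.15 each). The reads gave 0.08, 0.04 and 0.12, so the pericyte receptor was the one gene of the 10 without a negative difference on either of these scales. Leaving out 1 library turned the sign of each deposited difference, and with the division as a term saline mutant minus wild type was 0.32.

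Both collagen genes had lower mean levels under UNC0642 than in wild type. Col4a2 was lower in every library on both scales, Col4a1 in RPM alone. Deposited values of Col4a2 were 67.6, 75.6 and 82.0 in wild type, 61.3, 68.7 and 65.7 in the mutants given saline and 59.8, 45.6 and 55.2 under UNC0642. The UNC0642 libraries lay below all 6 others, and saline mutant replicate 2 alone reached into the wild-type range. The 3 differences were -0.20, -0.29 and -0.49 (SE 0.10 each). In RPM the larger step lay between wild type and the mutants, with 83.0 ± 9.90, 58.4 ± 3.38 and 55.2 ± 5.59 (SD, n = 3 each). Saline mutant minus wild type was -0.50 (SE 0.10) in the reads, or -0.26 (SE 0.16) with the division as a term. UNC0642 minus saline mutant was -0.09, or -0.17 (SE 0.08) on one side of the division.

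Col4a1 was at 51.6, 51.6 and 61.9 in wild type, at 43.1, 59.2 and 42.3 in the mutants given saline and at 52.0, 37.1 and 44.7 under UNC0642. Saline mutant replicate 2 and UNC0642 replicate 1 both reached wild-type levels, so no group stood clear of another in the deposited values. Its differences were -0.20, -0.11 and -0.31 (SE 0.14 each). UNC0642 minus saline mutant was 0.05 without saline mutant replicate 2 and 0.02 without UNC0642 replicate 2. In RPM, 63.5 ± 8.30 in wild type stood against 41.3 ± 8.32 in mutants given saline and 46.5 ± 4.74 under UNC0642 (SD, n = 3 each). Every wild-type library (at least 58.1) lay above every saline mutant (at most 50.9) and every UNC0642 library (at most 51.9). Saline mutant minus wild type was -0.62 (SE 0.14) in the reads, or -0.38 (SE 0.22) with the division as a term. In the reads UNC0642 minus saline mutant was 0.18, the reverse of the deposited sign.

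The ratio of the collagen chains, Col4a1 to Col4a2 per kilobase, had its smallest spread under UNC0642. In the reads it was 0.707, 0.630 and 0.699 in wild type, 0.596, 0.732 and 0.546 in the mutants given saline and 0.738, 0.753 and 0.749 under UNC0642. All 3 UNC0642 values lay above all 6 others, with a spread of 0.00800 (SD) against 0.0420 in wild type and 0.0961 in the mutants given saline. In the deposited values the UNC0642 ratios (0.718 to 0.771) were above every wild type (at most 0.677), but saline mutant replicate 2, at 0.765, lay among them. The ratio was examined after the levels had been seen, and its counting error was not computed. In UNC0642 replicate 1, Col4a1 had 549 reads (exact Poisson interval 504 to 597) and Col4a2 had 660 (611 to 712). With intervals this wide, the small spread under UNC0642 cannot show a steadier ratio. They do not resolve the step from 0.732 in saline mutant replicate 2 to 0.738 in UNC0642 replicate 1 either. The share of all gene pairs with ratios so separated was not counted. The strand setting of the counting is not given in the sources used here, so reads at the overlapping 5′ ends of these genes cannot be told apart, and the share of such reads was not tested.

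**Figure D2:**
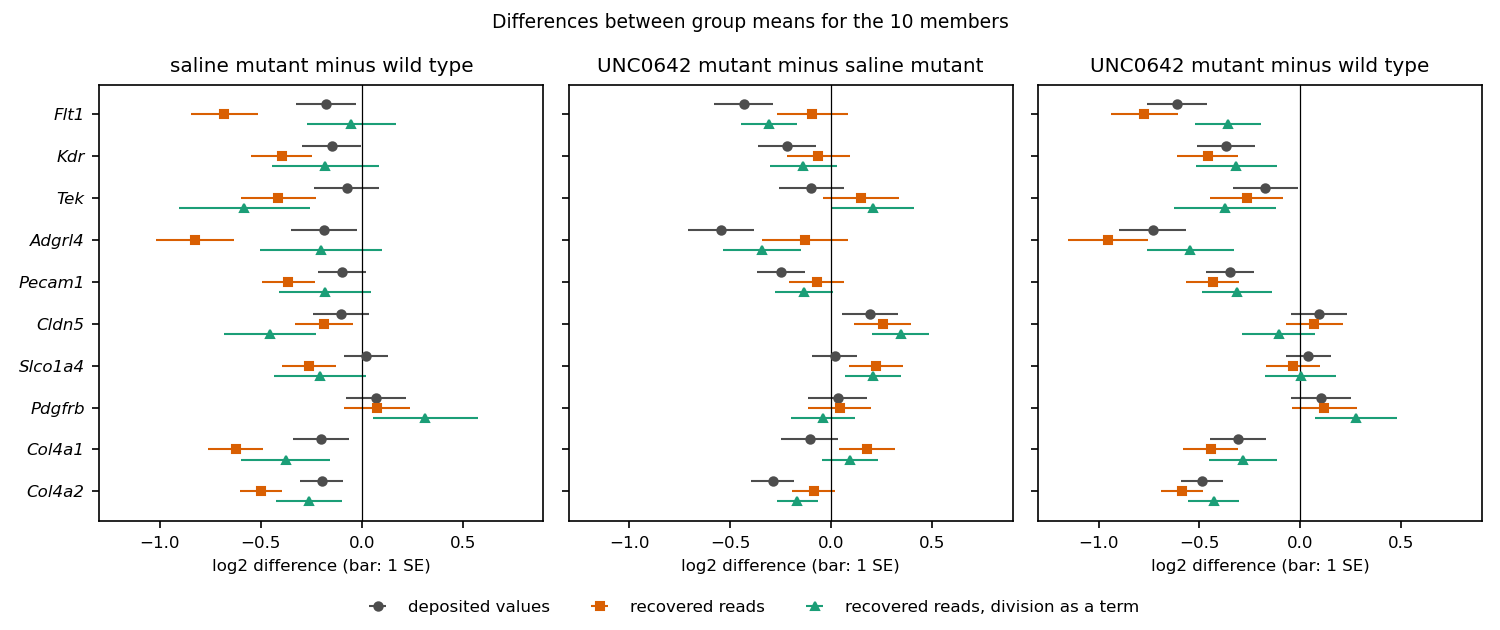
Log2 differences between group means for the 10 genes in the 3 comparisons, with bars of 1 SE: deposited values (circles), recovered reads (squares) and recovered reads with the library division as a term (triangles). From wild type to saline mutant the squares of Flt1 and Adgrl4 lie at -0.68 and -0.83 and the circles at -0.18 and -0.19; from saline mutant to UNC0642 the circles lie at -0.43 and -0.54 and the squares at -0.09 and -0.13.

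Counted over the set, 8 of the 10 genes were negative from wild type to saline mutant in the deposited values, with a median log2 difference of -0.12 beside 0.00 over all genes. From saline mutant to UNC0642 7 were negative (median -0.16), and from wild type to UNC0642 7 were negative (median -0.33). None of the 10 was called at a limma adjusted p under 0.05, where 0% of the 14444 genes were called in each of the 3 comparisons. At an unadjusted p under 0.05 there were 0.132%, 1.95% and 8.57% of all genes. No gene of the 10 had every saline mutant library below every wild-type library (1.7% of all genes had). UNC0642 libraries were all below all saline mutants for Pecam1, Adgrl4 and Col4a2, 3 of 10 genes, against 3.06% of all genes. They were all below wild type for these and for Flt1 and Kdr, 5 of 10, against 5.84%. Since the set was picked with these contrasts known, and the contrasts are tied to each other, nothing is read from these counts.

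In the recovered reads 9 of 10 genes were negative from wild type to saline mutant (median -0.41, beside -0.01 over all genes). Adgrl4, Col4a1, Flt1 and Col4a2 were among the 984 genes called lower by limma-voom, which were 6.81% of all genes, with 741 (5.13%) called higher, 11.9% in all, and again nothing is read from this. All saline mutants were below all wild-type libraries for 7 of the 10, against 20.5% of all genes. With the division as a term 0% were called, and 711 genes (4.92%) passed an unadjusted p under 0.05. From saline mutant to UNC0642, 5 of 10 were negative (median -0.01), 0% of all genes were called (3.71% at an unadjusted p under 0.05) and no gene of the 10 had its groups apart (3.89% of all genes did, in the lower direction). From wild type to UNC0642, 0 of the 10 were among the 8 genes called (0.0554%), while 6 of 10 were lower in every UNC0642 library than in every wild-type one, against 7.62%. Nothing is read from these counts either.

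A comparison within each side of the division is possible in part. UNC0642 replicate 3 is the single mutant library on the wild-type side, and in RPM it was below every wild-type library for 8 of the 10 genes, all but Slco1a4 and Pdgfrb, where 19.3% of all genes were. On the other side, UNC0642 replicates 1 and 2 were both below every saline mutant for Pecam1 and Col4a2, 2 of 10, where 9.53% of all genes were. For Cldn5 both were above every saline mutant (39.5 and 36.4 RPM against at most 36.1). The share of all genes in that direction was not counted. On these 5 libraries limma-voom called 0% of all genes (5.91% at an unadjusted p under 0.05). The first of these comparisons rests on 1 library and has no replicate. The 10 genes were picked with earlier results of these libraries known, and several vary together, so nothing is read from these counts.

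Over the 9 libraries 6 of the genes varied together. The median of Pearson's r on the log2 scale was 0.87 for the 15 pairs among Flt1, Kdr, Adgrl4, Pecam1, Col4a1 and Col4a2 (0.69 to 0.97), a group picked after the correlations had been seen. Flt1 and Adgrl4 were closest, with r of 0.97 in the deposited values and 0.98 in RPM (Spearman's rho 0.97 and 0.98). Without the 2 libraries farthest from the median of Flt1 that r was 0.94. Over all pairs of all genes the median r was 0.00.

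These 15 pairs were picked for their r in the same libraries, so their values are a description and support nothing. After the mean of each group was taken off, their median was 0.74 in the deposited values and 0.75 in the reads, beside -0.001 and 0.011 over all pairs of all genes. Leaving out, for each pair, the 2 libraries farthest from the median of its first gene lowered the median from 0.87 to 0.79, with the weakest pair at 0.28. The 9 libraries share their processing and their totals, so these values describe the libraries and carry no p.

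Tek, Slco1a4, Cldn5 and Pdgfrb had lower r with these genes over the 9 libraries. Their 24 pairs with the other 6 genes had a median of 0.23 in the deposited values and 0.41 in the reads, and the 6 pairs among them 0.36 in the deposited values. After group means were taken off, the 24 pairs had a median of 0.35 (up to 0.82) in the deposited values and 0.44 (up to 0.85) in the reads. Within groups Pdgfrb ran close to several of the 6 genes, with r of the deviations of 0.82 with Adgrl4, 0.77 with Flt1 and 0.74 with Pecam1 in the deposited values (0.81, 0.83 and 0.83 in the reads). Cldn5 and Col4a2 had the lowest value of all 45 pairs, -0.12. The low values of some pairs rest on few libraries. Without the 2 libraries farthest from the median of Flt1, its r rose from -0.003 to 0.82 with Cldn5 and from 0.37 to 0.76 with Tek. Over the 24 pairs the same step, by the first gene of each pair, gave a median of 0.11 (-0.69 to 0.82). Slco1a4 ran with Pdgfrb (0.70) and with Tek (0.66), but these fell to 0.31 and 0.26 without the 2 libraries farthest from the median, and wild-type replicate 3 was the highest library for all 3 of these genes. Over all 45 pairs the median was 0.37, and it moved to 0.16 without wild-type replicate 3 and to 0.54 without UNC0642 replicate 2.

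**Figure D3:**
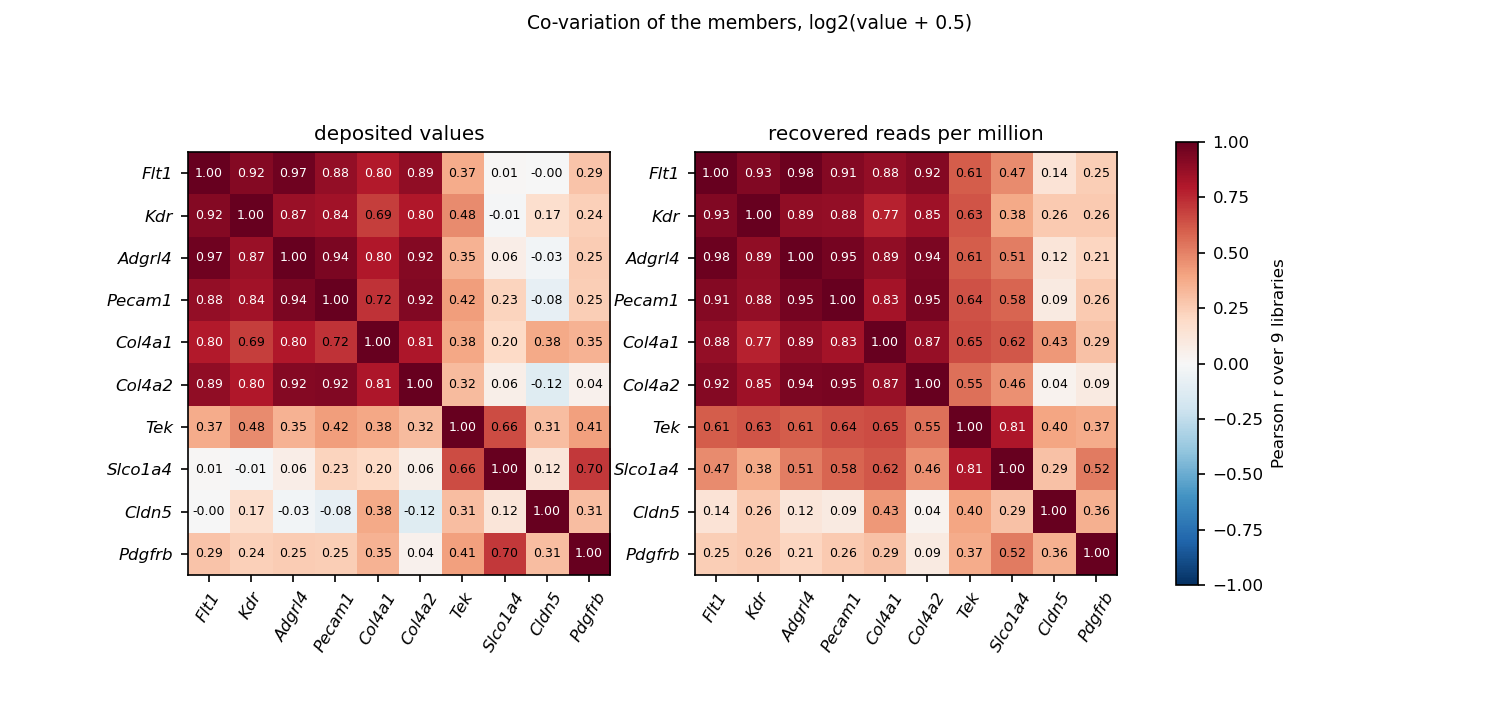
Pearson's r between the log2 values of the 10 genes over 9 libraries, in deposited values (left) and recovered RPM (right); red is positive and blue negative. The 6 genes from Flt1 to Col4a2 form the dark block, 0.69 or higher on the left, and Cldn5 has values near 0 with most of them.

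The genes outside the set whose values were most like the mean of the 10 standardized profiles came from no vascular list. In the deposited values they were Fnbp4 (r = 0.98), Mapk1ip1 (0.98), Mfhas1 (0.97), Shisa7 (0.97) and Limk2 (0.97), and in the reads Srf (0.98), Fnbp4 (0.98), Mfhas1 (0.98), Npat (0.97) and Cspp1 (0.97), each over 9 libraries. No r of a member with that mean was higher than 0.87 in the deposited values or 0.93 in the reads. That holds although the mean contains the member. The named genes are the highest of all genes outside the set, and so wide a search can itself give values above those of 10 genes. These genes are named as a description.

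Other endothelial genes had smaller median differences than the 10. Of 40 listed endothelial genes outside it, 31 were negative from saline mutant to UNC0642, with a median of -0.09, and 24 from wild type to saline mutant, with a median of -0.03, and 0 were called. The most abundant were mixed: Tfrc, the transferrin receptor, was at 132 ± 11.7 in wild type, 137 ± 9.41 in mutants given saline and 153 ± 15.9 under UNC0642 (SD, n = 3 each), and the sialomucin Cd34 at 78.6 ± 14.0, 80.8 ± 7.37 and 86.5 ± 11.1. The glucose transporter Slc2a1, at 92.0 ± 10.3, 86.7 ± 7.51 and 79.1 ± 6.24, and the thyroid hormone transporter Slco1c1, at 78.6 ± 15.9, 73.7 ± 6.10 and 61.8 ± 4.34, had lower means under UNC0642. None of these differences passed the test. In the reads on one side of the division, 20 of the 40 were negative and 20 positive from saline mutant to UNC0642, with a median of 0.00.

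The reads without the division as a term called 5 of the 40 lower in mutants given saline than in wild type, by limma-voom with Benjamini-Hochberg adjustment, where 6.81% of all genes were called lower. Of the 40, 29 were negative, with a median of -0.17 beside -0.01 over all genes. Nostrin, whose protein is a trafficking adaptor of endothelial nitric oxide synthase, fell by 1.62 on the log2 scale (SE 0.33, adjusted p = 0.020) and the ETS factor Fli1 fell by 1.34 (SE 0.32, adjusted p = 0.026). The transcription factor Sox18 fell by 0.84, the junction protein gene Esam by 0.58 and Slc2a1 by 0.41. For Nostrin wild type held 3.57, 6.41 and 7.71 RPM, the saline mutants 1.67, 1.64 and 2.16 and the UNC0642 libraries 2.86, 2.85 and 3.17. All UNC0642 libraries thus lay between the highest saline mutant and the lowest wild type, with UNC0642 replicate 3 closest to wild type. Fli1 had 3.50 in UNC0642 replicate 3, near the lowest wild type (3.57) and above the 1.88 and 2.29 of the other treated libraries. With the division as a term the differences were -1.47 (SE 0.57) for Nostrin and -0.61 (SE 0.51) for Fli1, and 0 of the 40 were called.

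Pericyte and smooth muscle genes were mostly on the positive side. Of 21 listed genes outside the set, 16 were positive from wild type to saline mutant (median 0.07) and 13 from saline mutant to UNC0642 (median 0.04), and 0 were called. With the division as a term 16 were positive from wild type to saline mutant, but 11 were negative from saline mutant to UNC0642 (median -0.01). Vtn was at 53.8 ± 6.02, 57.5 ± 12.4 and 57.8 ± 3.33 (SD, n = 3 each), the proteoglycan gene Cspg4 at 21.0 ± 3.69, 20.6 ± 2.44 and 17.9 ± 3.67 and Notch3 at 15.3 ± 4.62, 15.8 ± 2.86 and 12.7 ± 2.40. Rgs5, a regulator of G protein signalling that marks pericytes, was the 1 of the 21 called lower in the reads of the saline mutants, beside 6.81% of all genes (log2 difference -0.59, SE 0.11, limma-voom adjusted p = 0.020), with 52.6 ± 5.96, 35.0 ± 2.36 and 39.04 ± 5.03 RPM. With the division as a term this difference was -0.28 (SE 0.17). Foxs1 and Cnn1 were not analysed here.

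Among 28 other genes of the basement membrane and of collagen processing, 21 were negative from saline mutant to UNC0642 (median -0.13) and 17 were positive from wild type to saline mutant (median 0.04), with 0 called. Both medians turned in the reads, to 0.12 and -0.19, and with the division as a term they were -0.07 and 0.24, so the direction of this list depends on the scale. Agrn, which encodes the heparan sulfate proteoglycan agrin, was at 210 ± 8.12, 207 ± 10.3 and 200.2 ± 4.71 and the collagen-binding Sparc at 189 ± 40.0, 196 ± 9.91 and 179 ± 28.2 (SD, n = 3 each). In the reads of the saline mutants 3 of the 28 were called lower, beside 6.81% of all genes. Pxdn, whose peroxidase crosslinks type IV collagen, had 102, 106 and 121 RPM in wild type, 66.3, 58.4 and 57.1 in the mutants given saline and 81.0, 74.6 and 88.0 under UNC0642, and the groups did not overlap. Its log2 difference of saline mutant and wild type was -0.86 (SE 0.10, limma-voom adjusted p = 0.0016) and -0.67 (SE 0.15) with the division as a term. P4ha1, a subunit of the prolyl hydroxylase that collagen folding needs, differed by -0.78 (SE 0.14) and Col15a1 by -0.85 (SE 0.24). With the division as a term 0 of the 28 were called. Col4a3 and Col4a4 were not analysed here.

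The ligands and coreceptors upstream of the receptors were listed as 26 measured genes. In the deposited values 16 were negative from saline mutant to UNC0642 (median -0.05), and 0 were called in any of the 3 comparisons. In the reads that median was 0.06, and -0.03 with the division as a term. Vegfa, the ligand of Flt1 and Kdr, was at 88.2 ± 14.8 in wild type, 79.2 ± 4.005 in mutants given saline and 71.4 ± 6.57 under UNC0642 (SD, n = 3 each). The hypoxia-inducible factor genes Epas1, at 136 ± 22.3, 128 ± 5.95 and 119 ± 12.9, and Hif1a, at 73.7 ± 3.06, 75.6 ± 5.88 and 81.4 ± 5.25, had opposite signs. Pdgfra, a receptor of oligodendrocyte precursors, was at 70.1 ± 15.7, 72.1 ± 7.75 and 67.7 ± 11.3.

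In the reads Vegfa, its coreceptor Nrp1 and the vessel peptide Apln were called lower in mutants given saline than in wild type, 3 of the 26, beside 6.81% of all genes. Vegfa had 82.5, 97.4 and 121 RPM in wild type, 67.9, 73.3 and 66.2 in the mutants given saline and 68.9, 74.3 and 80.3 under UNC0642. The saline mutants were all below wild type, and so were the UNC0642 libraries. The log2 difference was -0.52 (SE 0.12, limma-voom adjusted p = 0.024), and -0.36 (SE 0.20) with the division as a term. Nrp1 and Apln differed by -0.66 (SE 0.16) and -0.76 (SE 0.18), and by -0.29 and -0.16 with that term, where 0 of the 26 were called.

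**Figure D4:**
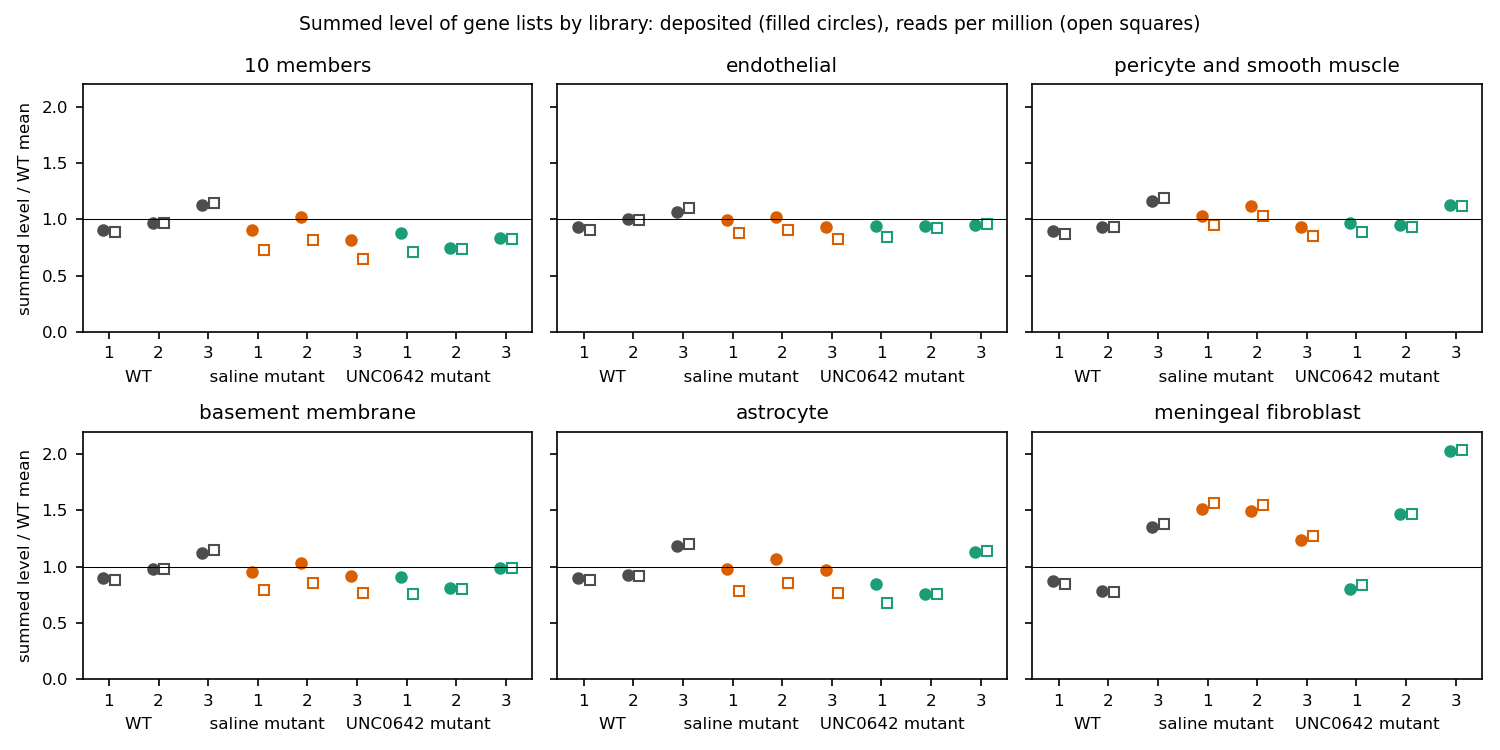
Summed level of the 10 genes and of 5 marker lists in each library, divided by the mean of the wild-type libraries (line at 1), in deposited values (circles) and recovered RPM (squares). The 10 genes range from 257 to 390 in summed deposited value, with all 3 UNC0642 libraries below all wild-type libraries, while the meningeal list is highest in UNC0642 replicate 3.

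Markers of other cell types moved beside the set. Of 14 astrocyte markers, 13 were negative from saline mutant to UNC0642 in the deposited values (median -0.16), and 13 in the reads on one side of the division (median -0.14). Their summed RPM ranged over 7132 to 9795 in wild type, 6257 to 6937 in the mutants given saline and 5531 to 9247 under UNC0642. Of 14 microglia markers 10 were negative from saline mutant to UNC0642 (median -0.07). With all 9 libraries in the reads and no division term, the medians of these comparisons were 0.04 for astrocyte and 0.08 for microglia markers. With the division as a term they were -0.14 and -0.07. Meningeal fibroblast markers ran opposite, with 19 of 19 positive from wild type to saline mutant (median 0.42) and to UNC0642 (median 0.43), and summed deposited values of 402 to 696 in wild type, 638 to 779 in mutants given saline and 415 to 1044 under UNC0642. Their median in the reads with the division as a term was 1.30 from wild type to saline mutant and 1.05 from wild type to UNC0642. No marker of these lists was at 0 reads in every library, and 0 were called in the deposited values or in the reads without that term. With it, the meningeal marker Mgp was called higher under UNC0642 than in wild type, and with median-of-ratios factors on the reads Mgp was called higher and the microglia marker Itgam lower from wild type to saline mutant. The part of these markers in the differences of the 10 genes was not tested.

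The 12 markers of cortical neurons had a median difference of 0.01 in the deposited values from wild type to saline mutant and from saline mutant to UNC0642. Gad1, which makes the transmitter GABA in inhibitory neurons, was the single neuronal marker called in the reads, lower in saline mutant than in wild type (log2 difference -0.36, SE 0.10), and it differed by 0.01 with the division as a term. The summed level of the 47 endothelial markers, the set included, was 1029 to 1177 in wild type, 1026 to 1131 in mutants given saline and 1034 to 1052 under UNC0642, so the groups overlapped. Summed over the 10 genes alone, the wild-type libraries had 315, 335 and 390, the saline mutants 313, 354 and 284 and the UNC0642 libraries 304, 257 and 288. In RPM these sums were 342, 372 and 443 in wild type, 279, 315 and 251 in mutants given saline and 274, 283 and 320 under UNC0642, and both mutant groups lay below wild type. Of the red blood cell and choroid plexus lists, 1 and 2 genes were measured, too few to describe.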

How the data were processed

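Reads of 9 prefrontal cortex libraries (3 per group) were processed by the authors with cutadapt, TopHat2 and HTSeq on mm9, per the submitters' processing notes; versions, normalization and strand setting were not given in the sources used here. What the authors deposited is a signal per gene, named CPM by them, and each of the 9 single-library files held the matrix values. None was 0. Of 255 divisions of the libraries in 2 sets, one made the mean log2 value of every gene equal between them (largest difference 2.5e-09, next best 0.87). Whole reads were recovered by finding, per gene, the log2 shift that turns all 9 values into whole numbers once a mean prior of 3.0 reads is taken off, with 100% whole within 0.02 reads.

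limma (version 3.58.1, in R 4.3.3), with its trend on mean level, was fitted to log2(value + 0.5) of all 14444 genes and 9 libraries, using a group term alone; p-values were adjusted by Benjamini-Hochberg, and an adjusted p under 0.05 was a call. Differences on this log2(value + 0.5) scale are understated for low genes. Recovered reads were fitted with limma-voom on library totals, without and with the division as a term, and within the 3 saline mutant and 2 UNC0642 libraries of one side. The recovery and fitting steps were tested on simulated data. The design foresaw a count test only for raw counts.

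The 10 genes and the 10 marker lists (185 of 207 listed genes measured) were chosen with earlier results of these data known. Named genes were the 10, the 4 most abundant others per list described, the 5 most like the mean of the 10 on each scale, and listed vascular genes called in a comparison; Vegfa, Nrp1 and Apln were named as called after their values were seen. Exon lengths came from GENCODE M21 and promoter windows from RefSeq, both on another build than the counts. Figures and tables used matplotlib 3.10.9, pandas 2.3.3, numpy 2.4.6 and scipy 1.17.1 under Python 3.11.15.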

Additional observations from a re-analysis of the deposited data

How the results depend on the processing

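Alternatives were a pseudocount of 0.1 or 1, a filter that keeps genes at 1 or more in 3 or more libraries, median-of-ratios factors, only the groups compared, a replicate block, each library left out, and the recovered reads with and without the division; voom with median-of-ratios factors and deviations from group means in the reads were added after seeing the data. All were run. Over 550 differences of the 10 genes, 38 moved by more than 1 residual SD, all with recovered reads (0 of 450 with deposited values). The settings with deposited values all keep the adjustment, so they cannot show how far the differences depend on it. Genes called between saline mutant and wild type were 0, but 5 with only these groups (3 higher, 2 lower: Morf4l1-ps1, Eno1b, Gm12070, Lrrc17 and Mrgpra6), 1725 in the reads and 1797 with median-of-ratios factors on the reads. Between UNC0642 and wild type 0 were called, but 8 in the reads, 3 with the division as a term (Mgp, Gabra2 and Inf2), 10 with median-of-ratios factors on the reads and 0 to 4 with single libraries left out (4 without UNC0642 replicate 1: Tuba1c, Gabra2, Inf2 and Tmem181b-ps); the cause was not tested. Genes were named here after their values were seen, and none of them belongs to the 10. Same-numbered libraries deviated with r of -0.19 to 0.307, so the numbers do not pair them, and the replicate block called 0 genes in each comparison (34, 265 and 1155 at an unadjusted p under 0.05). Leaving out single libraries turned the sign of a difference for Tek, Slco1a4, Pdgfrb, Cldn5 and Col4a1, and of none for Flt1, Kdr, Adgrl4, Pecam1 and Col4a2. Saline mutant minus wild type moved from -0.18 to -0.04 for Flt1, from -0.15 to -0.03 for Kdr and from -0.19 to -0.06 for Adgrl4 without saline mutant replicate 3, and from -0.10 to -0.03 for Pecam1 without wild-type replicate 3. UNC0642 minus saline mutant moved from -0.43 to -0.26 for Flt1 without UNC0642 replicate 2. The median r of 0.37 over 45 pairs became 0.54 after group means were taken off, 0.58 in the reads and 0.64 with both. Reads of the 10 genes per library ranged from 116 to 1153, which limits how finely single libraries can be compared.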
